A study of Mus musculus with 16 samples.

Results

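The data compare mouse leukaemia cells from bone marrow after 7 days of doxycycline with the same kind of cells from bone marrow of mice given no drug. They make up 6 of the 16 RNA libraries of the series, chosen by their group labels alone: 3 doxycycline libraries and 3 control libraries, tested in a model of these 6. All cells express CBFB::MYH11 and GFP, were transplanted into congenic recipient mice and were collected by GFP sorting. In the doxycycline group the mice drank 3 mg/ml doxycycline in 5% sucrose water, and the labels give cells carrying an shRNA. The control mice drank 5% sucrose water, and their labels name primary cells with the fusion, while the design text has every cell transduced with the doxycycline-inducible shRNA against MYH11. Mouse age, sex and strain are not given in the sources used here. A group given the drug with no shRNA was not part of the design, and effects of the drug and of the knockdown cannot be told apart.

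CBFB::MYH11 is the fusion protein of acute myeloid leukaemia with inversion of chromosome 16. It joins most of CBFB, the partner that helps RUNX proteins bind DNA, to the tail of a smooth muscle myosin, and it disturbs the RUNX1 programme that blood progenitors need to mature. GATA2, KIT and the RUNX and ETS factors act in these progenitors, while GATA1 and KLF1 direct red cell formation.

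Depth was 23.61, 28.03 and 26.94 M (mega) expected counts in doxycycline replicates 1 to 3, against 24.3, 27.37 and 21.88 M in control replicates 1 to 3. The first principal component held 71.4% of the variance and set all doxycycline libraries apart from all control libraries. The second held 11.1% and spread the libraries within each group. Rank correlation of the tested genes was 0.9905 to 0.9939 between doxycycline libraries, 0.9891 to 0.9912 between control libraries and 0.9468 to 0.9557 between the groups. Of the tested genes, 4.68 to 7.93% lay 2-fold or more apart in a pair of doxycycline libraries, 5.06 to 6.7% in a pair of control libraries and 17 to 20.2% in a pair across the groups. The median SD of log2 CPM (counts per M counts, TMM-scaled) over the libraries of a group was 0.137 with doxycycline and 0.183 in control. Haemoglobin genes took 4.5 to 5.6% of counts with doxycycline and 0.212 to 0.416% in control. The targeted fusion transcript has no row in the count table. Mouse Myh11 had 0, 2 and 1 counts in doxycycline libraries and 3, 4 and 2 counts in control libraries, too few to check the knockdown. Whether each numbered library came from its own mouse is not stated, and the p-values therefore cover the spread among these libraries, which may be technical.

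**Figure D1:**
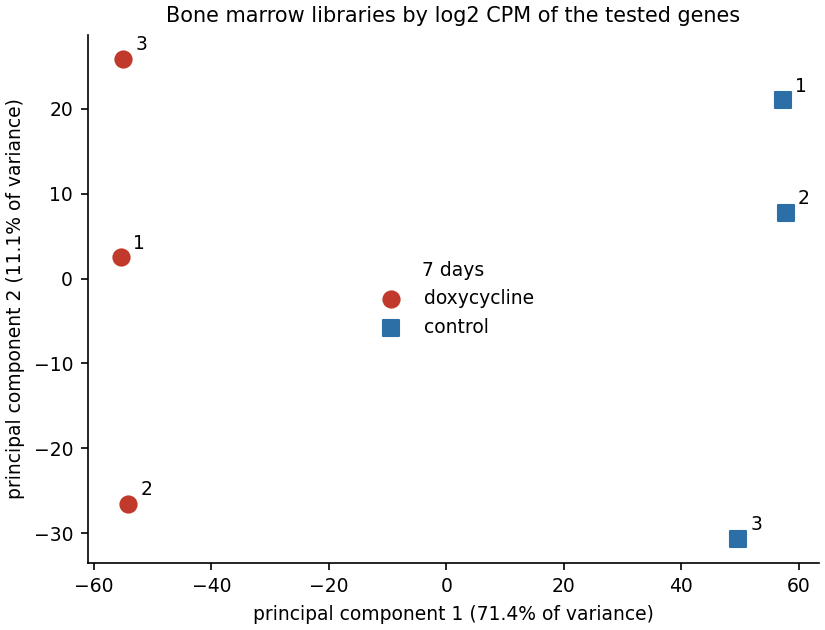
Principal components of log2 CPM over the tested genes, with 1 point per library, labelled by replicate number (circles, doxycycline; squares, control). On component 1 (71.4% of variance) doxycycline libraries lie at -55.41 to -54.15 and control libraries at 49.66 to 57.74; component 2 (11.1%) spreads libraries within both groups.

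Over all genes, 4929 of 13471 tested (36.6%) passed an adjusted p of 0.05 in edgeR's quasi-likelihood test and are termed called: 2418 were higher with doxycycline (17.9%) and 2511 were lower (18.6%). At least a 2-fold change was found in 1949 of them (14.5% of tested genes), 929 higher (6.9%) and 1020 lower (7.57%). At least a 4-fold change was found in 369 genes higher and 366 lower. All doxycycline libraries lay above every control library in 2382 of the 2418 genes called higher, and below every control library in 2473 of the 2511 called lower. CPM of the groups did not overlap in 49.2% of all tested genes. For the gene lists below, the shares of all tested genes to compare with are 17.9% called higher and 18.6% called lower. With library totals in place of TMM scaling the split was 1828 higher and 3313 lower, and the median of all genes moved by -0.107 on the log2 scale. A model of all 16 libraries shares its spread with the other groups. It called 949 of 14435 tested genes, 572 higher and 377 lower, and 943 of these were also called in the model of 6. List counts below for that model or for library totals compare with the numbers of the same setting, not with 17.9% and 18.6%.

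The smallest p-values among genes called higher belonged to Mylk3, Cttn, Atp7b, Tspan32, Xpo7 and Mpst. Mylk3, a myosin light chain kinase described in heart muscle (chr8:85324303-85386345, minus strand, GRCm38), had 164, 152 and 158 CPM in doxycycline libraries, against 13.9, 12.6 and 14.5 CPM in control libraries, a log2 fold change of 3.53 ± 0.10 (SE). Cttn, which encodes the actin-branch binding protein cortactin, had 114, 119.9 and 122 CPM with doxycycline and 9.81, 8.40 and 11.3 CPM in control, a log2 fold change of 3.59 ± 0.12. For both genes the libraries of a group lay in a narrow band and the bands were far apart, which choice by smallest p favours. Atp7b, a copper-exporting ATPase (chr8:21992785-22060305, minus strand), had 33.4, 31.4 and 33.1 CPM with doxycycline and was close to silent at 0.203, 0.143 and 0.468 CPM in control, a log2 fold change of 6.92 ± 0.25. Tspan32, a tetraspanin of blood cells (chr7:143005046-143019644, plus strand), had 169, 183 and 169 CPM with doxycycline and 26.2, 28 and 30.9 CPM in control. Xpo7, a nuclear export receptor known to rise late in red cell formation, had 523, 555 and 504 CPM with doxycycline and 93.2, 92.9 and 102 CPM in control.

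The smallest p-values among genes called lower belonged to Tek, Capn2, Vim, Mrvi1, Gp1bb and Gcnt2. Tek, the angiopoietin receptor TIE2 of endothelial and blood stem cells (chr4:94739289-94874976, plus strand), had 7.46, 7.82 and 7.07 CPM with doxycycline, against 114, 127 and 125 CPM in control, a log2 fold change of -4.03 ± 0.10. Capn2, the large subunit of the calcium-activated protease calpain-2 (chr1:182467260-182517608, minus strand), had 1.51, 2.03 and 1.70 CPM with doxycycline and 77.5, 78.8 and 92.8 CPM in control, a log2 fold change of -5.56 ± 0.15. Vim, the intermediate filament vimentin, had 38.7, 37.6 and 39.8 CPM with doxycycline and 466, 416 and 435 CPM in control. Control libraries thus held 11.3 times the doxycycline level of Vim. Gp1bb, a subunit of the platelet receptor for von Willebrand factor, was close to 0 with doxycycline at 0.173, 0.221 and 0.316 CPM and stood at 17.9, 19.2 and 19.5 CPM in control.

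**Figure D2:**
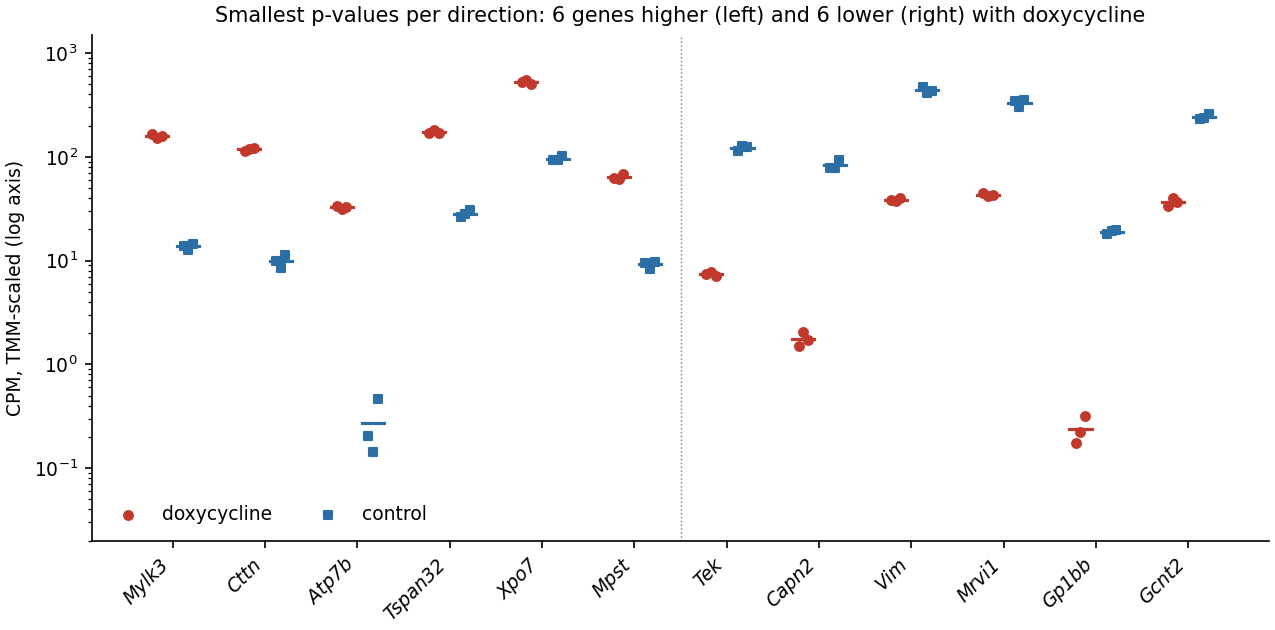
CPM (TMM-scaled, log axis) in every library of the 6 genes called higher and the 6 called lower with the smallest p; circles are doxycycline libraries, squares are control libraries and short lines are group means. The libraries of a group lie close together, most loosely for Atp7b in control, and no gene has overlapping groups. Choice by smallest p favours both traits, so they do not measure how consistent the libraries are over all genes.

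The sequences before the RefSeq start sites of 4 of these genes are shown because RUNX and GATA factors bind such stretches. They are the 250 bases before RefSeq's start on GRCm38.p6, 5′ to 3′ on the gene's strand, for the 2 genes per direction with the smallest p that had a single start site in the table. Capitals mark the RUNX core (TGTGGT or TGCGGT), the GATA motif (AGATAA or TGATAA) and the AP-1 motif (TGANTCA) on either strand; no marked matches overlap. Over 32851 such windows of all genes, 18.6% held a RUNX core, 16.6% a GATA motif and 6.75% an AP-1 motif. Atp7b (chr8:22060075-22060324), whose window lies mostly inside the gene as GENCODE annotates it, held 1 RUNX core, and Tspan32 (chr7:143004796-143005045) held 2 RUNX cores and 1 GATA motif. Capn2 (chr1:182517611-182517860) held 1 AP-1 motif, and Tek (chr4:94739039-94739288) held none of the motifs in this window. A match is a description of letters, and no binding was measured here.
Atp7b: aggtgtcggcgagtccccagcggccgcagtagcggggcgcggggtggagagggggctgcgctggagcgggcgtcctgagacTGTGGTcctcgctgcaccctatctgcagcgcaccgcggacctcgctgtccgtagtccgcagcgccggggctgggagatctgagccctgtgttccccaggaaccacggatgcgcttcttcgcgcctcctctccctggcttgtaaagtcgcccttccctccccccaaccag
Tspan32: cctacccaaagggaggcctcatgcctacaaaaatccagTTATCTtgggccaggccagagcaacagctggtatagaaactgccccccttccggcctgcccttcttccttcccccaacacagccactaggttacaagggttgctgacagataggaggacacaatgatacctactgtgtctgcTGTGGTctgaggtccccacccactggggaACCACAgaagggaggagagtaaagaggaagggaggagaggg
Tek: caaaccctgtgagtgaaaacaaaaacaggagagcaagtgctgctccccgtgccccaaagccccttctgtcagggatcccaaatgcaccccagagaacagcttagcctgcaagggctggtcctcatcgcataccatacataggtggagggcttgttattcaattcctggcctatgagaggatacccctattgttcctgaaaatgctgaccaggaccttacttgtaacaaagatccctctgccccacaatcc
Capn2: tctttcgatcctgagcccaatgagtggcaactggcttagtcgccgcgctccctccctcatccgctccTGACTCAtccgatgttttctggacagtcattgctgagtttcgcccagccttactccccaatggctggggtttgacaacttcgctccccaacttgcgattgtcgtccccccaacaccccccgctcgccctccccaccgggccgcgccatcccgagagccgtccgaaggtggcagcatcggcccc

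Among abundant genes the widest fold differences ran in both directions. Lmna, which encodes the nuclear lamins A and C (chr3:88480147-88509956, minus strand), had 88.98, 119 and 105 CPM with doxycycline and 0.648, 0.179 and 1.36 CPM in control, a log2 fold change of 7.21 ± 0.39. Sphk1, the kinase that makes sphingosine 1-phosphate, had 140.2, 199 and 125 CPM with doxycycline and 1.70, 1.04 and 1.83 CPM in control. Doxycycline replicate 2 was the highest library for Lmna and Sphk1, and each doxycycline library stood far above every control library. Rab3il1, an exchange factor for Rab GTPases, had 39.2, 36.6 and 47.1 CPM with doxycycline and 0.324, 0.536 and 1.06 CPM in control. Prokr1, a prokineticin receptor, had 16.1, 15.1 and 17.5 CPM with doxycycline and 0, 0 and 0.0851 CPM in control. Vgf, a neuropeptide precursor, had 23.6, 61.7 and 28.9 CPM with doxycycline and 0.324, 0.0358 and 0.383 CPM in control, and here the doxycycline libraries themselves differed more than 2-fold.

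On the other side Clec11a, a secreted growth factor of blood progenitors, had 0.216, 0.332 and 0.316 CPM with doxycycline and 45.4, 76.9 and 62.04 CPM in control, a log2 fold change of -7.70 ± 0.28. Slc7a8, a neutral amino acid transporter, had 20.4, 9.52 and 17.6 CPM with doxycycline and 605, 375 and 479 CPM in control, a log2 fold change of -4.94 ± 0.35. Control libraries held 30.8 times the doxycycline level of Slc7a8. Rasgrp2, the exchange factor that activates Rap1 in platelets, had 6.99, 7.16 and 4.14 CPM with doxycycline and 107, 149.9 and 165 CPM in control. Lama4, a laminin chain, had 1.12, 0.701 and 1.82 CPM with doxycycline and 29.3, 31.97 and 46.95 CPM in control. Pik3c2b, a class II phosphoinositide kinase, had 0.906, 0.996 and 1.10 CPM with doxycycline and 21.3, 26.4 and 29.98 CPM in control. Ctla2a, a cysteine protease inhibitor, had 0.259, 0.701 and 0.671 CPM with doxycycline and 34.4, 17.8 and 16.2 CPM in control. Groups that do not overlap were a condition for choosing these genes, so their separation is not a finding about them.

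Genes of the red cell programme rose together with doxycycline, beyond the haemoglobin genes. All 15 tested genes of haem synthesis and globin handling were called higher (of 17 listed), with a median log2 fold change of 1.43 against -0.014 over all tested genes. Alas2, the first enzyme of haem synthesis in red cells, had 635, 817 and 735 CPM with doxycycline and 17.8, 12.3 and 49.6 CPM in control, a log2 fold change of 4.78 ± 0.64. Slc25a37, the mitochondrial iron importer mitoferrin-1, had 844, 780.2 and 794 CPM with doxycycline and 74.9, 82.1 and 109 CPM in control, a log2 fold change of 3.18 ± 0.15. Of the other enzymes, Cpox had a log2 fold change of 2.31 ± 0.10, Uros of 1.94 ± 0.10, Alad of 1.91 ± 0.10 and Fech, which inserts the iron, of 2.01 ± 0.14. In bulk RNA, a changed number of cells of a type and changed RNA per cell cannot be told apart.

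Red cell membrane and enzyme genes were called higher in 20 of 24 tested members and lower in 0, with a median log2 fold change of 2.10. Slc4a1, the anion exchanger band 3, had 1613, 1572 and 1801 CPM with doxycycline and 106, 50.6 and 222 CPM in control. Control replicate 3 was the highest control library for Slc4a1, as for Alas2 and Rhag. Rhag, the Rh-associated glycoprotein, had 120.1, 78.6 and 126 CPM with doxycycline and 1.62, 1.11 and 4.46 CPM in control. Ank1, which ties spectrin to band 3, had 1399, 1493 and 1352 CPM with doxycycline and 203, 168 and 289 CPM in control. For each of these membrane genes the doxycycline libraries lay within a factor of 2. Pklr, the red cell pyruvate kinase, had 42.2, 21.3 and 46.7 CPM with doxycycline and 0.0405, 0 and 0.383 CPM in control. In the model of all 16 libraries, 13 haem genes and 12 membrane genes were called higher.

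Of the 8 haemoglobin genes, 6 passed the filter and 4 rose. The other 2 tested were not called and had negative log2 fold changes, the lowest -1.16. With no filter on low counts 1 haemoglobin gene was called lower, as in 1 of the fits that left out a library. Per length, Hba-a2 stood at 76760 ± 10010 TPM (SD) with doxycycline and 4567 ± 1957 TPM in control, and Hbb-bs at 50630 ± 3607 TPM with doxycycline and 1431 ± 1042 TPM in control (n = 3 each). Hba-a1 and Hba-a2 are near-identical copies, as are Hbb-bs and Hbb-bt, so the split of reads within each pair is uncertain.

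Iron handling genes were called higher in 9 of 13 and lower in 1. The transferrin receptor Tfrc had 619, 594 and 572 CPM with doxycycline and 147, 168 and 134 CPM in control. The iron exporter ferroportin, Slc40a1, had 39.7, 31.7 and 40.4 CPM with doxycycline and 5.55, 6.04 and 7.44 CPM in control, so receptors for uptake and the exporter were higher in the same libraries. Ferritin chains rose by less: Fth1 had a log2 fold change of 1.14 ± 0.15 and Ftl1 of 1.47 ± 0.17. In the model of all 16 libraries 4 iron genes were called higher.

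Among erythroid regulators 14 of 18 were called higher and 1, Lmo2, lower. Klf1, the activator of adult globin, had 228, 241 and 277 CPM with doxycycline and 108, 98.8 and 108 CPM in control. Zfpm1, the GATA1 cofactor FOG1, had 203, 169.5 and 217 CPM with doxycycline and 51.9, 47.6 and 58.9 CPM in control, a log2 fold change of 1.90 ± 0.12. Gata1 had 422, 439 and 498 CPM with doxycycline and 321, 265 and 299.7 CPM in control, a log2 fold change of 0.62 ± 0.11, below that of its cofactor. Gata2, the progenitor GATA factor that usually gives way to GATA1 in red cell formation, was also higher, at 584, 846 and 616 CPM with doxycycline and 263, 236 and 292 CPM in control. Epor, the erythropoietin receptor, had a log2 fold change of 0.64 ± 0.09. Gfi1b, a repressor of the same lineage, did not pass the test at 0.16 ± 0.13. In the model of all 16 libraries 4 of the regulators were called higher.

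**Figure D3:**
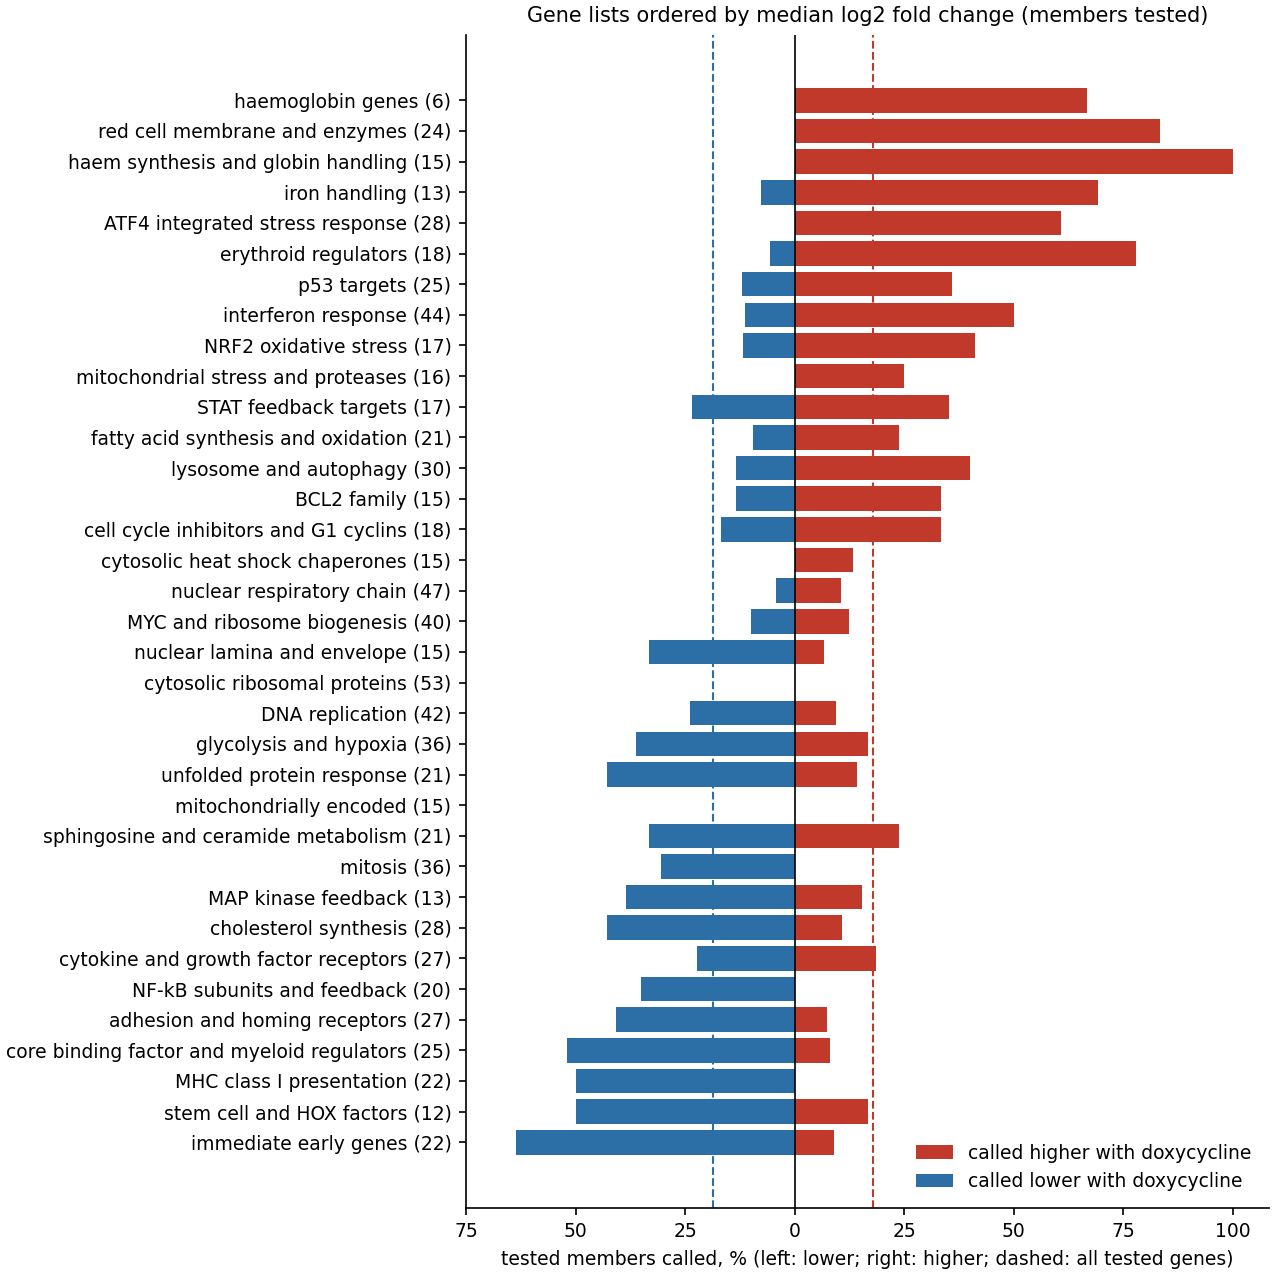
Share of tested members called higher (to the right) and lower (to the left) with doxycycline for the gene lists other than cell type lists, ordered by median log2 fold change, with members tested in brackets. Dashed lines mark the share over all tested genes, 17.9% higher and 18.6% lower; haem synthesis, red cell membrane and erythroid regulator lists reach far past the right line.

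Many stem cell and core binding factor genes fell. Of 23 listed stem cell and HOX factors, 12 passed the filter, 6 were called lower and 2 higher, with a median log2 fold change of -1.40. Meis1, a HOX partner linked to myeloid leukaemia, had 16.4, 13.7 and 16.4 CPM with doxycycline and 52.04, 42.3 and 44.9 CPM in control. Erg, an ETS factor of stem cells, had 9.71, 5.87 and 8.05 CPM with doxycycline and 69.6, 80 and 84.7 CPM in control, a log2 fold change of -3.31 ± 0.17. Etv6, also an ETS factor, had 43.4, 40.6 and 42.3 CPM with doxycycline and 128, 149 and 138 CPM in control. Doxycycline libraries were below every control library for all 3 of these genes. Hlf, a leucine zipper factor of stem cells, went the other way at 53.7, 49.5 and 55.1 CPM with doxycycline and 24.4, 33.9 and 31.98 CPM in control. The number higher was 1 without doxycycline replicate 1, doxycycline replicate 2 or control replicate 1. Of the stem cell list, 4 members were called lower and 0 higher in the model of all 16 libraries.

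Of 25 tested core binding factor and myeloid regulators, 13 were called lower and 2 higher. Runx1 had 156, 146 and 148 CPM with doxycycline and 223, 236 and 255 CPM in control, a log2 fold change of -0.66 ± 0.09 (adjusted p = 1.73e-04). Runx3 had 7.25, 10.8 and 6.99 CPM with doxycycline and 32.3, 25.4 and 31.6 CPM in control, a log2 fold change of -1.83 ± 0.18, and Runx2 had one of -0.83 ± 0.14. Cbfb, whose counts cannot separate the intact from the fused copy, had 91.5, 90.3 and 96.9 CPM with doxycycline and 126, 139 and 119 CPM in control, a log2 fold change of -0.46 ± 0.09 (adjusted p = 0.00247). All RUNX genes and Cbfb were thus lower, with the largest log2 change in Runx3. Pou4f1, a homeodomain factor, was higher at 34.6, 45.2 and 36.7 CPM with doxycycline and 13.3, 20.2 and 17.4 CPM in control. Spi1, the myeloid master factor PU.1, had a log2 fold change of -0.52 ± 0.16. The call for Spi1 was lost without doxycycline replicate 1 (-0.39), doxycycline replicate 3 (-0.53), control replicate 1 (-0.47) or control replicate 3 (-0.41). Cebpa, the granulocyte factor, was low at 0.820, 1.11 and 0.237 CPM with doxycycline and 0.973, 1.11 and 1.32 CPM in control and did not pass the test. The model of all 16 libraries called 2 of this list lower and 1 higher, and Runx1, Runx2, Runx3 and Cbfb were not among its calls.

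Megakaryocyte and platelet genes were lower in 9 of 16 tested members (25 listed) and higher in 2. Treml1, a platelet granule receptor, had 3.24, 2.18 and 2.96 CPM with doxycycline and 40.9, 50.2 and 52.7 CPM in control, a log2 fold change of -4.11 ± 0.17. Fli1, the ETS factor of megakaryocytes, had 31.7, 34.6 and 33.4 CPM with doxycycline and 124, 139 and 127 CPM in control. Rab27b, a granule transport GTPase, had 17.9, 14.1 and 18.9 CPM with doxycycline and 110.1, 112 and 94.2 CPM in control. Itga2b, the integrin CD41 of megakaryocytes and early progenitors, had 90.2, 106 and 74.6 CPM with doxycycline and 356, 281 and 357 CPM in control. Tubb1, the platelet tubulin, went the other way at 116, 157 and 118 CPM with doxycycline and 64.6, 64.1 and 81.8 CPM in control. Pf4 and Ppbp, the platelet chemokines, were too low to be tested. In the model of all 16 libraries 3 were called lower and 0 higher.

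The mast cell and basophil list split, with 6 of 15 tested members called higher and 5 lower. Kit, the stem cell factor receptor, had 270.1, 239 and 269.9 CPM with doxycycline and 156, 101 and 127 CPM in control, a log2 fold change of 1.02 ± 0.14. Mitf, a mast cell factor, had 10.4, 9.52 and 8.60 CPM with doxycycline and 3.28, 2.36 and 2.85 CPM in control. Slc18a2, the vesicle transporter for histamine and other amines, had 53.98, 43.6 and 51.6 CPM with doxycycline and 361, 367 and 443 CPM in control, a log2 fold change of -2.97 ± 0.12. Il1rl1, the IL-33 receptor, was abundant and lower at 997, 1038 and 892 CPM with doxycycline and 1632, 1673 and 1807 CPM in control. Srgn, the granule proteoglycan serglycin, had 301, 335 and 351 CPM with doxycycline and 792, 983 and 688 CPM in control. The tryptase genes Tpsb2 and Tpsab1 and the chymase Mcpt4, which mark mature mast cells, had 0 counts in every library. With all 16 libraries in 1 model, the calls were 2 higher and 2 lower.

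Immediate early genes, which growth signals switch on within minutes, were mostly lower. Of 22 tested, 14 were called lower and 2 higher, with a median log2 fold change of -1.52. Fos had 3.24, 2.07 and 1.07 CPM with doxycycline and 150.4, 70.3 and 43.6 CPM in control, a log2 fold change of -5.39 ± 0.72. Jun had 253, 124 and 169.9 CPM with doxycycline and 1557, 1274 and 933 CPM in control, a log2 fold change of -2.78 ± 0.30. The control libraries were uneven for both genes, with control replicate 1 highest, and every doxycycline library was below every control library. Egr1, a zinc finger factor, had 41.7, 27.6 and 36.9 CPM with doxycycline and 236, 139 and 128 CPM in control. Jund had 121, 131 and 116 CPM with doxycycline and 363, 284 and 246 CPM in control. Fosb had 39.6, 3.98 and 4.11 CPM with doxycycline and 444, 387 and 185 CPM in control, did not pass the test (adjusted p = 0.0516), and was called without doxycycline replicate 1, at -6.39. Btg2, a growth-limiting gene on the same list, was higher at 19.6, 21.6 and 21.1 CPM with doxycycline and 4.86, 4.01 and 5.70 CPM in control. In the model of all 16 libraries 5 were called lower and 0 higher.

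Feedback genes of MAP kinase signalling were called lower in 5 of 13 tested (38.5%, against 18.6% of all tested genes) and higher in 2 (15.4%, against 17.9%). Dusp2, a nuclear phosphatase of ERK, had 3.28, 1.66 and 3.55 CPM with doxycycline and 45.5, 42.1 and 35.4 CPM in control. Dusp8, a phosphatase of stress kinases, had 7.12, 7.23 and 7.93 CPM with doxycycline and 0.122, 0 and 0.213 CPM in control. Dusp2 and Dusp8 thus stood at opposite ends, each with groups that did not overlap. Spred1 and Spry2, inhibitors of RAS signalling, had log2 fold changes of -0.98 ± 0.12 and -0.76 ± 0.15. Without control replicate 3 the number called higher was 1, and the model of all 16 libraries called 0 higher and 3 lower.

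Cytokine and growth factor receptors were called higher in 5 (18.5%) and lower in 6 (22.2%) of 27 tested, close to the 17.9% and 18.6% over all tested genes. Il4ra, the IL-4 receptor chain, had 81.9, 124 and 95.9 CPM with doxycycline and 11.8, 13.4 and 13.7 CPM in control, a log2 fold change of 2.95 ± 0.15. Il2rg, the common gamma chain that pairs with it, was lower at 53.1, 57.9 and 62.6 CPM with doxycycline and 158, 154 and 152 CPM in control. Il3ra, the IL-3 receptor chain, had 8.67, 8.27 and 7.14 CPM with doxycycline and 27.4, 22.6 and 28.02 CPM in control. STAT feedback targets were called higher in 6 and lower in 4 of 17. Pim1, a survival kinase induced by STAT5, had 386, 420.5 and 411 CPM with doxycycline and 69.8, 40.99 and 63.1 CPM in control, a log2 fold change of 2.81 ± 0.18. Ccnd2, cyclin D2, had 134, 187 and 139 CPM with doxycycline and 326, 329.6 and 363 CPM in control. The model of all 16 libraries called 1 receptor higher and 1 lower, and 2 STAT targets higher and 2 lower.

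Targets of ATF4, the factor that links amino acid shortage and other stresses to transcription, were called higher in 17 of 28 tested members (34 listed) and lower in 0, with a median log2 fold change of 0.73. The number lower was 1 with library totals as scaling, with no filter on low counts or without control replicate 2. Asns, asparagine synthetase, had 846, 918 and 956 CPM with doxycycline and 141, 176 and 139 CPM in control, a log2 fold change of 2.58 ± 0.12. Atf5, a related factor, had 116, 162 and 131 CPM with doxycycline and 19.5, 18.7 and 21.9 CPM in control. Trib3, a pseudokinase target, had 32.97, 42.4 and 37.8 CPM with doxycycline and 2.43, 3.22 and 5.40 CPM in control. Ddit3, the stress factor CHOP, had 51.4, 68.8 and 57.7 CPM with doxycycline and 25.3, 18.96 and 19.8 CPM in control. Atf4 itself had a log2 fold change of 0.54 ± 0.09. The transfer RNA ligase Cars and the one-carbon enzyme Mthfd2 had log2 fold changes of 1.12 ± 0.09 and 1.08 ± 0.09. Leaving out any library left 17 to 18 called higher, and the model of all 16 libraries called 10.

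Of 21 unfolded protein response genes, 9 were called lower, 3 higher and 9 did not pass the test. Pdia4, an endoplasmic reticulum disulfide isomerase, had 62.5, 59.5 and 66.2 CPM with doxycycline and 101, 106 and 88.2 CPM in control. Edem1, which clears misfolded glycoproteins, had 52, 51.03 and 49.2 CPM with doxycycline and 97.03, 90.98 and 103 CPM in control. Xbp1 was higher at 57.6, 65.9 and 66.3 CPM with doxycycline and 43.3, 33.5 and 39.3 CPM in control. Cytosolic heat shock chaperones were called higher in 2 of 15 (13.3%, against 17.9% of all tested genes) and lower in 0. The number lower was 3 with library totals as scaling and 1 without control replicate 3. Hspa1b, a heat-inducible HSP70 gene, had 17.6, 106 and 17.7 CPM with doxycycline and 9.69, 6.90 and 4.42 CPM in control. Doxycycline replicate 2 stood far above the rest in Hspa1b, which did not pass the test at 2.75 ± 0.99 and was called without that library, at 1.33. Mitochondrial stress and protease genes were called higher in 4 of 16, in 1 with library totals as scaling or without doxycycline replicate 1 or doxycycline replicate 3, and in 2 without control replicate 2. Modelling all 16 libraries together called 2 unfolded protein response genes higher and 2 lower.

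Genes under NRF2, the oxidative stress factor, were called higher in 7 of 17 tested and lower in 2, and the number lower was 4 with library totals as scaling or without control replicate 3, and 1 without doxycycline replicate 1. Gclm, which limits glutathione synthesis, had 279, 276 and 297 CPM with doxycycline and 106, 89.2 and 104 CPM in control. Hmox1, the haem-degrading oxygenase, had 17.6, 40.8 and 21.2 CPM with doxycycline and 8.51, 5.40 and 6.17 CPM in control, with doxycycline replicate 2 highest. Taldo1, of the pentose phosphate pathway, had 470.5, 538 and 554 CPM with doxycycline and 249, 247 and 222 CPM in control. The model of all 16 libraries called 4 higher and 0 lower.

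Targets of p53 were called higher in 9 of 25 tested (36%, against 17.9% of all tested genes) and lower in 3 (12%, against 18.6%). Without control replicate 1 the number higher was 15. Sesn2, a stress-induced inhibitor of mTORC1, had 108, 148 and 120.3 CPM with doxycycline and 38.7, 21.1 and 34.5 CPM in control. Trp53inp1 had 95.02, 132 and 90.5 CPM with doxycycline and 40.2, 22.4 and 34.5 CPM in control, and Mdm2, the p53 ligase, had 136, 175 and 132 CPM with doxycycline and 94.8, 76.1 and 94.8 CPM in control. Cdkn1a, the cell cycle inhibitor p21, had 130.4, 247 and 152 CPM with doxycycline and 134, 51.1 and 57.96 CPM in control. Control replicate 1 lay within the doxycycline range for Cdkn1a, which did not pass the test at 1.12 ± 0.49 and was called without that library, at 1.69. Perp, a p53 target of cell junctions, was lower at 81.7, 60.7 and 92.4 CPM with doxycycline and 296, 231 and 208 CPM in control.

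BCL2 family genes were called higher in 5 of 15 tested (33.3%, against 17.9% of all tested genes) and lower in 2 (13.3%, against 18.6%). With library totals as scaling 4 were lower. Bcl2l1, which encodes the survival protein BCL-XL, had 221, 236 and 271 CPM with doxycycline and 108, 79.2 and 98.3 CPM in control, a log2 fold change of 1.35 ± 0.13. Bmf, a cell death activator, had 0.518, 0.701 and 0.197 CPM with doxycycline and 3.73, 3.68 and 3.49 CPM in control. Mcl1 had 190, 187 and 196 CPM with doxycycline and 225, 234 and 211 CPM in control, did not pass the test (adjusted p = 0.0612), and was called without control replicate 3, at -0.26. With all 16 libraries in 1 model, the calls were 3 p53 targets higher and 1 lower, and 1 BCL2 family gene higher.

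Many interferon response genes rose and many antigen presentation genes fell. Of 44 tested interferon response genes (47 listed), 22 were called higher and 5 lower, with a median log2 fold change of 0.43. Isg15, a ubiquitin-like antiviral protein, had 128, 191 and 155 CPM with doxycycline and 15.8, 22.1 and 23.3 CPM in control, a log2 fold change of 2.96 ± 0.18. Ifit1, which binds foreign RNA, had 51.8, 68.1 and 60.98 CPM with doxycycline and 1.01, 3.15 and 3.79 CPM in control. Oasl2, of the oligoadenylate synthetase family, had 85.7, 128 and 91.8 CPM with doxycycline and 2.43, 8.58 and 11.7 CPM in control. Irf7, the factor that amplifies the response, had 94.2, 133 and 96.4 CPM with doxycycline and 30.6, 34.3 and 43.97 CPM in control. Doxycycline replicate 2 was the highest library for Isg15, Ifit1, Oasl2 and Irf7, and control replicate 3 the highest control. The model of all 16 libraries called 5 higher and 1 lower.

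Of 22 MHC class I presentation genes, 11 were called lower and 0 higher, and 21 had a negative log2 fold change. H2-T23, a non-classical class I gene, had 96.7, 112 and 93.9 CPM with doxycycline and 235, 226 and 256 CPM in control. H2-D1, a classical one, had 248, 301 and 265 CPM with doxycycline and 442, 396 and 459 CPM in control. H2-K1, the other classical gene, did not pass the test at 380, 436 and 387 CPM with doxycycline and 459, 448 and 467 CPM in control. Psmb8, an immunoproteasome subunit that the interferon list also holds, had 26.6, 25.02 and 26.5 CPM with doxycycline and 99.7, 89.05 and 92.2 CPM in control, a log2 fold change of -1.85 ± 0.09. Psmb9 and Psmb10, its partner subunits, had log2 fold changes of -1.29 ± 0.11 and -1.01 ± 0.10, and Tap1, the peptide transporter, of -0.68 ± 0.10. Class I genes are near-identical copies in part, so their split of reads is uncertain. NF-kB subunits and feedback genes were called lower in 7 of 20 and higher in 0. Rel, an NF-kB subunit, had 1.34, 1.36 and 0.868 CPM with doxycycline and 4.82, 3.40 and 5.15 CPM in control, and Tnf had 0.130, 0.332 and 0.237 CPM with doxycycline and 3.00, 1.75 and 1.36 CPM in control. Modelling all 16 libraries together called 0 class I genes and 2 NF-kB genes lower.

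Of the cell cycle genes, Mki67, a marker of cycling cells, had 1455, 1304 and 1307 CPM with doxycycline and 1170, 1474 and 1493 CPM in control and did not pass the test at -0.02 ± 0.13. Mitosis genes were called lower in 11 of 36 (30.6%, against 18.6% of all tested genes) and higher in 0, with a median log2 fold change of -0.21. Bub1b, a spindle checkpoint kinase, had 169, 153 and 169.8 CPM with doxycycline and 271, 258 and 242 CPM in control, and the mitotic motor Kif11 had 209.7, 179 and 178 CPM with doxycycline and 242, 279 and 242 CPM in control. DNA replication genes were called lower in 10 of 42 (23.8%) and higher in 4 (9.52%, against 17.9% of all tested genes), with a median of -0.14 and a range of -0.52 to 1.30. Among these, E2f2, an S phase factor, was higher at 341, 336 and 359 CPM with doxycycline and 133, 130.1 and 156 CPM in control, and Pold1, the polymerase delta catalytic chain, had a log2 fold change of -0.47 ± 0.09. Mitosis calls numbered 7 without doxycycline replicate 1, 5 without doxycycline replicate 2, 18 with library totals as scaling and 1 in the model of all 16 libraries. For replication genes lower the matching numbers were 5, 5, 17 and 0. Of replication genes, 2 were higher with library totals or without doxycycline replicate 1 or doxycycline replicate 3, and 1 in the model of all 16 libraries.

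Some G1 regulators changed by more. Cdk6, a G1 kinase of progenitors, had 142, 123 and 132 CPM with doxycycline and 316, 349.5 and 339 CPM in control, a log2 fold change of -1.34 ± 0.09. Ccnd3, the D-type cyclin of red cell precursors, had 437, 568 and 464 CPM with doxycycline and 152, 107 and 167 CPM in control, a log2 fold change of 1.79 ± 0.17, while Ccnd2 fell. Cdkn1b, the inhibitor p27, had 144, 147 and 142 CPM with doxycycline and 77.98, 81.7 and 91.98 CPM in control. Of 18 tested inhibitors and G1 cyclins, 6 were called higher (33.3%, against 17.9% of all tested genes) and 3 lower (16.7%, against 18.6%). Their median log2 fold change was 0.03, with 9 positive and 9 negative. With all 16 libraries in 1 model 3 were called higher and 2 lower.

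Lists of growth machinery genes had medians close to 0: log2 fold changes of -0.04 for MYC and ribosome biogenesis, -0.10 for ribosomal proteins and -0.01 for the nuclear respiratory chain. Myc had 203, 189 and 236 CPM with doxycycline and 261, 226 and 291 CPM in control and did not pass the test (-0.31 ± 0.12, adjusted p = 0.0597), but was called without doxycycline replicate 3 or control replicate 2, at -0.41 in both. MYC and ribosome biogenesis genes were called higher in 5 of 40 (12.5%) and lower in 4 (10%), below the 17.9% and 18.6% of all tested genes. The number lower was 1 without doxycycline replicate 1 and 2 without doxycycline replicate 2, control replicate 1 or control replicate 2. With library totals as scaling 4 were higher and 9 lower. Mxd1, which opposes MYC, had 136, 152 and 143 CPM with doxycycline and 46.2, 43.99 and 62.3 CPM in control, and Srm, a MYC target of polyamine synthesis, had 99.2, 110.1 and 111 CPM with doxycycline and 187, 169 and 168 CPM in control. Of 53 ribosomal protein genes 0 were called by edgeR's test, with 3 at an unadjusted p under 0.05, 3 higher and 1 lower by DESeq2 and 1 higher by limma-voom, while library totals as scaling gave 0 higher and 4 lower. Without control replicate 3, 13 of them were lower, as were 6 of the 15 mitochondrially encoded genes, of which 0 were called with all libraries by edgeR's test, by limma-voom or by DESeq2; at an unadjusted p under 0.05 edgeR's test gave 0. Control replicate 3 had 7.89% of counts in ribosomal protein genes and 2.01% in mitochondrial genes, against 9.67 to 10.2% and 2.95 to 3.53% in the other control libraries. Nuclear respiratory chain genes were called higher in 5 of 47 (10.6%) and lower in 2 (4.26%), also below the shares of all tested genes. The number lower was 13 without control replicate 3, 4 without doxycycline replicate 3 and 0 without doxycycline replicate 1. It was 1 without doxycycline replicate 2, control replicate 1 or control replicate 2. The number higher was 3 without doxycycline replicate 3, control replicate 2 or control replicate 3. With library totals as scaling 3 were higher and 7 lower, beside 1828 higher and 3313 lower over all 13471 tested genes in that setting.

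Of the metabolic lists, glycolysis and hypoxia genes were called lower in 13 of 36 (36.1%, against 18.6% of all tested genes) and higher in 6 (16.7%, against 17.9%). Slc2a1, the glucose transporter GLUT1, had 271, 347 and 307 CPM with doxycycline and 86.4, 92.4 and 104 CPM in control, a log2 fold change of 1.71 ± 0.12. Pfkfb3, which makes an activator of glycolysis, had 17.4, 18.1 and 18.6 CPM with doxycycline and 56.98, 49.7 and 57.3 CPM in control. Pfkp, a phosphofructokinase, had 93.3, 103 and 89.9 CPM with doxycycline and 227, 188 and 219.5 CPM in control. Cholesterol synthesis genes were called lower in 12 of 28 (42.9%) and higher in 3 (10.7%), and the number higher was 0 with library totals as scaling or without doxycycline replicate 1 or doxycycline replicate 2 and 1 without control replicate 1 or control replicate 2. Hmgcs1, which makes the precursor of mevalonate, had 24.2, 20.2 and 24.9 CPM with doxycycline and 49.2, 44.7 and 41.2 CPM in control. Fatty acid genes were called higher in 5 of 21 (23.8%) and lower in 2 (9.52%). The number higher was 3 without doxycycline replicate 1 or doxycycline replicate 2, and the number lower was 5 with library totals as scaling. The model of all 16 libraries called 2 glycolysis genes higher and 1 lower, and 0 cholesterol genes higher and 2 lower. Of the fatty acid genes it called 2 higher and 1 lower.

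Lysosome and autophagy genes were called higher in 12 of 30 and lower in 4. Ctsb, the lysosomal protease cathepsin B, had 1254, 1729 and 1515 CPM with doxycycline and 209, 228 and 260.2 CPM in control, a log2 fold change of 2.69 ± 0.15. Lamp1, a lysosomal membrane protein, had 351, 363 and 376 CPM with doxycycline and 139, 166 and 194 CPM in control. Ulk1, the kinase that starts autophagy, had 202, 227 and 197 CPM with doxycycline and 80.8, 70.3 and 99.7 CPM in control, and Sqstm1, a cargo receptor, had 238, 352 and 282 CPM with doxycycline and 136, 106 and 134 CPM in control. Leaving out any library left 12 called higher, and the model of all 16 libraries called 7.

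Sphingolipid genes were called higher in 5 of 21 and lower in 7. Beside Sphk1, the ceramidase Acer2 was higher at 14.2, 17.1 and 11.4 CPM with doxycycline and 3.44, 2.61 and 3.62 CPM in control, and the ceramide synthase Cers5 was lower at 3.84, 3.80 and 6.24 CPM with doxycycline and 23.9, 26.2 and 21.1 CPM in control. Mfsd2b, the exporter of sphingosine 1-phosphate in red cells and platelets, was lower at 421, 339 and 368 CPM with doxycycline and 608, 598 and 752 CPM in control. Kinase and exporter thus stood on opposite sides. With all 16 libraries in 1 model 2 sphingolipid genes were higher and 3 lower. In the nuclear lamina list Lmna was the 1 gene of 15 called higher and 5 were called lower. Lmnb2, a B-type lamin, had 69.04, 62.1 and 69.98 CPM with doxycycline and 118, 128 and 119.8 CPM in control, and Syne2, a nesprin of the nuclear envelope, had 6.17, 6.35 and 7.38 CPM with doxycycline and 20.6, 27.6 and 32.5 CPM in control. The number lower was 3 without doxycycline replicate 1 or doxycycline replicate 2.

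Adhesion and homing receptors were called lower in 11 of 27 tested and higher in 2. Itga6, a laminin-binding integrin, had 121, 118 and 124 CPM with doxycycline and 252, 287 and 311 CPM in control. Icam2 had 33.7, 36.3 and 37.9 CPM with doxycycline and 61.5, 82.4 and 66.2 CPM in control. Adgrg1, the adhesion receptor GPR56 of stem cells, had 276, 299 and 287 CPM with doxycycline and 431, 375 and 474 CPM in control. The number lower was 6 without doxycycline replicate 1, 7 without doxycycline replicate 3 or control replicate 1, and 0 in the model of all 16 libraries.

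**Figure D4:**
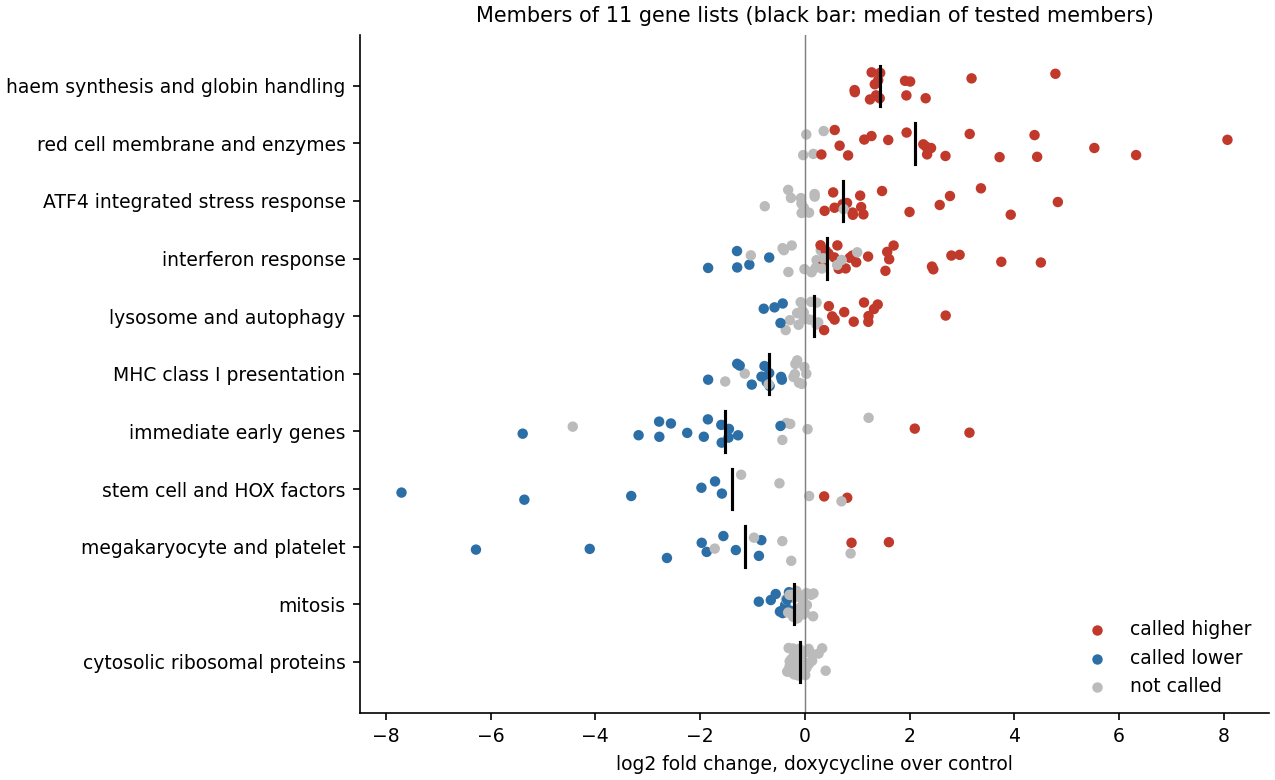
Log2 fold change (doxycycline over control) of each tested member of 11 gene lists; colours mark calls and black bars the list medians. Haem synthesis and red cell membrane members lie right of 0, class I, immediate early and stem cell members mostly left, and ribosomal protein members close to 0.

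Markers of other cell types were followed as a check of the sort. Neutrophil and granule genes were called lower in 16 of 24 tested and higher in 0, and all 24 had a negative log2 fold change. Their summed level was 543.7, 900.8 and 440.4 CPM with doxycycline and 1772, 1403 and 1221 CPM in control. Camp, a granule antimicrobial peptide, had 27.9, 38.2 and 22.4 CPM with doxycycline and 77.2, 80.5 and 66.4 CPM in control, and Chil3, a chitinase-like protein of neutrophil precursors, had 30.4, 36.3 and 21.8 CPM with doxycycline and 76.2, 80.4 and 59.8 CPM in control. Log2 fold changes of the 24 ran from -1.54 to -0.69, and 8 members did not pass the test. With each library left out in turn, S100a9 lost its call in 4 fits, S100a8 in 2 and Ctsg in 1. Camp, Chil3, Fcnb, Lcn2 and Ngp lost theirs in 0. The number lower was 7 without doxycycline replicate 1, 10 without control replicate 1 and 0 in the model of all 16 libraries. Whether these reads come from neutrophils in the sort or from the leukaemia cells was not tested.

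Monocyte genes were called lower in 1 of 19, with summed levels of 51.2, 95.4 and 45.4 CPM with doxycycline and 50.5, 63.5 and 112.5 CPM in control. Without doxycycline replicate 2 the number lower was 2, and without control replicate 3 a further 2 were called higher. MHC class II and dendritic cell genes were called lower in 1 of 9, Zbtb46, a call lost on leaving out any 1 of the doxycycline libraries, control replicate 2 or control replicate 3, at -0.63 to -0.81. B cell genes were called higher in 3 of 17 (17.6%, close to the 17.9% over all tested genes) and lower in 1 (5.88%). Of the 17, 15 had a positive log2 fold change, and the median was 1.18. Limma-voom and the test with no filter on low counts each called 8 higher. B cell genes summed to 69, 105.2 and 59.9 CPM with doxycycline and 36.9, 45.9 and 94.4 CPM in control, and 9 were called higher without control replicate 3. Without doxycycline replicate 1, doxycycline replicate 2 or control replicate 2, 1 B cell gene was called higher, and the 1 lower, Cd79b, lost its call without doxycycline replicate 1 (-0.77), doxycycline replicate 3 (-0.61), control replicate 2 (-0.76) or control replicate 3 (-0.69). Doxycycline replicate 2 and control replicate 3 were the highest of their group in all of these sums. Blnk, an adaptor of B cell receptor signalling, accounted for little of the sum at 3.45, 6.42 and 4.11 CPM with doxycycline and 0.365, 0.250 and 0.765 CPM in control.

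Eosinophil genes were called lower in 1 of 4 tested, Siglecf, at 0.734, 0.775 and 1.07 CPM with doxycycline and 21.3, 11.2 and 12.2 CPM in control. T cell and NK cell genes were called lower in 2 of 7 tested of 21, Lat and Nkg7, and Lat, an adaptor that platelets and mast cells also use, made up most of their sum at 68.96, 74.5 and 81.6 CPM with doxycycline and 241, 196 and 207 CPM in control. Nkg7 lost its call without doxycycline replicate 1 (-1.41), doxycycline replicate 3 (-1.49) or control replicate 3 (-1.18). Endothelial and stromal genes were called higher in 3 of 7 tested and lower in 1, Tek, or in 2 without control replicate 1 or control replicate 3. Cxcl12, a homing chemokine of stroma, had 200.3, 195 and 204 CPM with doxycycline and 116, 106 and 124 CPM in control, while collagen genes Col1a1, Col1a2 and Col3a1 did not pass the filter. Doxycycline replicate 2 stood apart in the first pair, with 128 counts of Col1a1 and 86 of Col1a2, against 2 to 8 in the other doxycycline libraries and 3 to 13 in control libraries. The part of other cell types in the results was not tested.

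**Figure D5:**
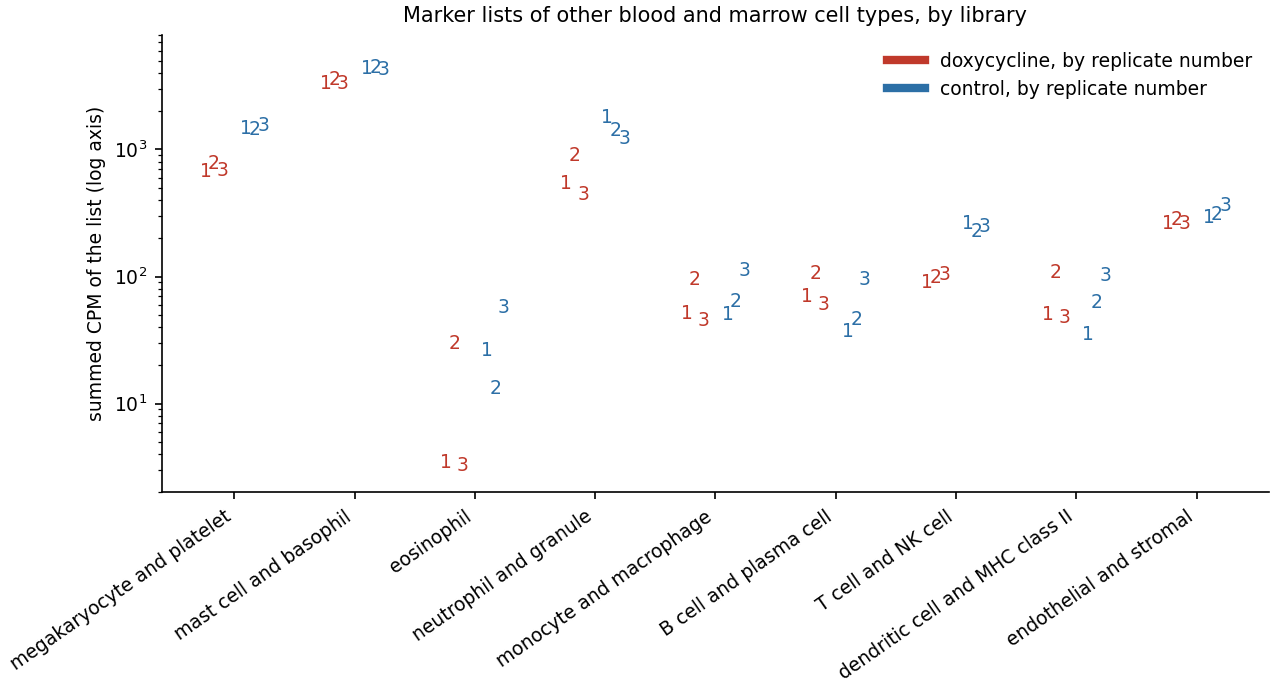
Summed CPM (log axis) of 9 marker lists in each library; digits are replicate numbers, red for doxycycline and blue for control. Neutrophil sums are 440.4 to 900.8 with doxycycline and 1221 to 1772 in control, and replicate 2 of doxycycline and replicate 3 of control are highest of their groups for eosinophil, monocyte, B cell and MHC class II lists.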

How the data were processed

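RNA of GFP-sorted cells was sequenced after oligo-dT enrichment with the NEBNext Ultra II RNA kit, per the labels' protocols. The authors deposited expected counts (estimated counts, of which 9.41 to 9.92% per library were not whole numbers) and TPM per library. Trim Galore, FastQC, MultiQC, STAR, RSEM and build GRCm38 are named, per the submitters' processing notes; strand handling is not stated, so antisense partners cannot be told apart. Of 55487 gene identifiers, 55394 were found in GENCODE M21, which gave coordinates (1-based).

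Columns were matched to libraries by name, and 0 had no library. Counts were rounded and tested with edgeR 4.0.16 (R 4.3.3; filterByExpr, TMM, glmQLFit with robust estimation, glmQLFTest) over the 6 libraries with no covariate. P-values are two-sided and adjusted by Benjamini-Hochberg over 13471 genes; genes under 0.05 are "called". The SE of a log2 fold change is its size over the square root of F. No replicates agreed within sampling noise (lowest chi-square per degree of freedom 15.9). CPM are TMM-scaled. Deposited TPM served only levels between genes. A count of 3 was the floor of a library, for counting error only.

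Genes named are, per direction, the 12 largest log2 fold changes (average log2 CPM of at least 3, groups not overlapping), the 8 largest CPM differences and the 6 smallest p, plus up to 4 members of each of 45 gene lists, the 2 most abundant members of cell type lists, and anchors. Alas2, Fech, Rhag, Meis1, Egr1, Fosb, Trib3, Ddit3, Atf4, Ifit1, Oasl2, Irf7, H2-D1, H2-K1, Tap1, Cdkn1a, Mdm2, Trp53inp1, Hmox1, Mcl1, Runx2, Pou4f1, Gfi1b, Epor, Hlf, Mitf, Tubb1, Lamp1, Sqstm1, Cdkn1b and Mfsd2b were added after their values were seen. The members and lists were chosen with earlier results of these data known. Of 1114 list entries, 5 are not in the table.

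Alternatives were other scalings, filters and tests (DESeq2 1.42.0, limma-voom 3.58.1), a replicate block, all 16 libraries in 1 model and each library left out. Counts were also simulated with the same dispersion for every gene and changes in a small set of well-expressed genes. Of these changes the steps recovered 99% of the 2-fold and 100% of the 4-fold ones, with 13520 genes tested. Spread that differs by gene was not simulated, so recovery in the real data can be lower. Promoter windows are RefSeq's (GRCm38.p6); 9600 of 13460 symbols (71.3%) matched, so motif shares of called and other genes were not compared.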

Additional observations from a re-analysis of the deposited data

How the results depend on the processing

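Leaving out each library in turn gave 3703 to 5149 called genes, 1852 to 2553 higher and 1851 to 2596 lower, and 3302 of the 4929 calls held in all 6 such fits in the same direction. A mean count of at least 50, no filter, DESeq2's size factors or test, limma-voom and no robust estimation gave 4380 to 5394 calls. The model of all 16 libraries gave 949 (572 higher, 377 lower), with a biological coefficient of variation of 0.421 against 0.151. Requiring at least 2-fold left 1949 calls, 929 higher and 1020 lower. No called gene changed direction under any of these settings.

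Same-numbered libraries did not deviate together (r = -0.01, -0.14 and -0.29), so the numbers were not used as pairs. With the replicate number as a block 3804 genes were called, 1877 higher and 1927 lower, and the uncalled Eif2s3y turned to -0.0331.

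Signs turned only for genes that were not called. Eif2s3y was -0.13 with limma-voom, and with library totals Cd74 was -0.0162 and H2-Ab1 -0.0559. With 1 library left out, Cd74 ran from -0.49 to 1.08, H2-Ab1 from -0.77 to 1.01, Mki67 from -0.13 to 0.0377, Bst2 from -0.0079 to 0.47, Mpeg1 from -0.87 to 0.23, Ciita from -1.05 to 0.55, Ear2 from -0.50 to 1.68, Prg2 from -3.87 to 1.41 and Eif2s3y from -0.72 to 0.63. The causes were not tested. At this depth genes of a few counts per library, such as Myh11, cannot show a difference.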

Other observations

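Xist, the RNA that silences an X chromosome in female cells, had 427.3, 723.1 and 162 CPM in doxycycline libraries and 798, 1064 and 1250 CPM in control libraries. Doxycycline replicate 3 was the lowest of the 6, and the groups did not overlap. Its log2 fold change of -1.25 ± 0.58 did not pass the test (adjusted p = 0.166), and without doxycycline replicate 3 it was called, at -0.85. The Y-linked gene Ddx3y had 13, 17 and 14 counts in doxycycline libraries and 13, 25 and 24 counts in control libraries, and Eif2s3y had 17, 47 and 6 counts with doxycycline and 15, 17 and 28 counts in control.

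Some abundant genes of no fixed programme also fell. Ppia, the prolyl isomerase cyclophilin A, had 675, 639 and 801 CPM with doxycycline and 1548, 1717 and 1233 CPM in control. Actb, cytoplasmic actin, had 1696, 1827 and 1834 CPM with doxycycline and 2722, 2426 and 2521 CPM in control. Both are often used to scale other measurements, and the groups overlapped for neither.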
